A study of Mus musculus with 12 samples.

Results

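The forkhead transcription factors are described here as they were measured in hair follicle stem cells (HFSCs) of mouse back skin. They were taken as every gene whose symbol starts with Fox, one letter from a to s and a digit, except Foxc1 and Foxm1, which were left out. The rule gave 30 of the 17885 genes in the table of control and Eed iKO HFSCs, and 42 of the 21915 genes in the table of anagen and telogen HFSCs. All 30 were also in the second table, so 42 forkhead genes were measured in at least 1 table, and 12 of them in the hair cycle table only.

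The study sequenced total RNA, amplified before sequencing, from HFSCs sorted by flow cytometry for EpCAM, CD34 and high α6-integrin and against Sca1, with 3 libraries in each of 4 groups. Control mice were wildtype C57BL/6J at postnatal day (P) 70 and received only the ethanol in which the inducing drug was dissolved. Eed iKO mice, Eed -/- in the labels, were also taken at P70. They carried floxed Eed alleles and K15-CrePGR, a Cre recombinase driven by a keratin 15 promoter in the bulge and switched on by topical RU-486, which was applied daily for a week from P50. Eed is a core subunit of Polycomb repressive complex 2 (PRC2), which places the repressive H3K27me3 mark. Cre and RU-486 were present in the Eed iKO mice only, so their effects and that of losing Eed cannot be told apart. Anagen (growth phase, P28-30) and telogen (rest phase, P50-52) HFSCs came from wildtype mice and carried neither agent, so age and phase of the hair cycle cannot be told apart in that comparison. Both comparisons ask which genes change, with the loss of PRC2 in the first and between activated and quiescent stem cells in the second.

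Forkhead proteins bind DNA through a winged-helix domain, and an α-helix in it, the recognition helix, lies in the major groove. FOXO proteins are held in the cytoplasm when insulin or growth factors activate PI3K and AKT, and in quiescent cells they enter the nucleus and switch on genes of cell cycle arrest, stress defence and catabolism. In hair follicles FOXP1 helps to keep bulge stem cells quiescent through FGF18, FOXN1 is the factor missing in nude mice, FOXI3 acts downstream of ectodysplasin in ectodermal appendages, and FOXQ1 is mutated in satin mice.

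The members share this helix, and the stretch that codes for it is shown for 7 of them, because it lets the family be compared at the DNA level. The sequence was read from the GENCODE vM21 transcripts (GRCm38, the build also called mm10), 5′ to 3′ on the strand of the gene, and capitals mark bases that differ from Foxo3.
Foxo3: tggaagaactccatccggcacaacctgtcc
Foxo6: tggaagaactccatTcggcacaacctgtcG
Foxk2: tggCagaaTtcAatTcgCcacaaTctCtcT
Foxn2: tggaagaaTtcTGtTcggcaTaaTctAtcc
Foxn3: tggaagaactcAGtGAgAcacaacTtgtcA
Foxc2: tggCagaacAGcatccgCcacaacctgtcA
Foxp4: tggaagaaTGccGtGcgCcacaacctCAGc
These windows of 30 coding bases lie within 1 exon at chr17:88463192-88463221 (Foxn2, plus strand), chr12:99388403-99388432 (Foxn3, minus strand) and chr8:121116957-121116986 (Foxc2, plus strand). The windows of the other 4 are split by an intron, and their first and last bases are chr11:121290885-121296052 (Foxk2, plus), chr10:42197878-42274821 (Foxo3, minus), chr4:120269159-120286844 (Foxo6, minus) and chr17:47871328-47874640 (Foxp4, minus). The windows were found by searching for a set pattern of amino acids, so a gene whose helix departs from it was not counted. Such a window was found in 34 of the 42 forkhead genes, and 12 of its 30 positions held the same base in all 34. The pattern alone fixes these 12 bases, so their number does not measure conservation in the family. At the positions left free, a pair of genes differed at a median of 7 positions and at 14 at most. Foxo4 and Foxo6 differed from Foxo3 at 1 and 2 positions, Foxc2 at 5, Foxn2 and Foxn3 at 7 each, and Foxk2 and Foxp4 at 8 each.

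Exact sequence shared with other genes bears on how well reads can be assigned. For most of the genes named here, few of the 31-base words of the transcripts also occurred in transcripts of other genes: none for Foxi3, Foxk2, Foxo6 and Foxp4, 2.73% for Foxp1 and 8.0% for Foxo1, whose exons overlap an antisense gene, Gm20402. Values of 2 forkhead genes are uncertain for this reason. Foxq1 has 66.1% of its exon bases on the antisense gene A530084C06Rik, and 31.5% of the exon bases of Foxp3 lie on Ccdc22, Ppp1r3f, Flicr and Gm36995.

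Some facts of all libraries bear on the values that follow. The deposited values are counts scaled for library size, here called normalized counts, and the 2 tables were scaled apart from each other, so no level is set across them. The reads behind them ranged from 33269583 to 57063586 per library in the Eed iKO table, whereas no read depth is known for the hair cycle libraries. Normalized counts of Eed were 1084, 1249 and 950.2 in control and 933.3, 1361 and 1001 in the libraries labelled Eed iKO (log2 fold change -0.01, adjusted p = 0.993 by limma), so the targeted gene was not lower in them. A whole-gene count does not separate the deleted exons from the others, and Eed iKO stands below for the label of a library. None of the 12 bulge markers was at 0 in any library, and their summed level was 239593 normalized counts in telogen replicate 1 against 536338 to 668116 in the other 5 hair cycle libraries. This library stood apart mainly in the 2 keratins that dominate the sum. Krt15 was at 142406 against 344674 to 422433 in the other 5, and Krt5 at 50461 against 131957 to 186721. Itga6, Krt14, Sox9, Tcf7l1 and Tcf7l2 were also lowest there. Only Lhx2 and Epcam were highest there (11217 and 1864), so the low sum does not hold for every marker.

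A handful of forkhead genes held most of the family's expression in HFSCs. To compare genes, the normalized count was divided by the mean length of the gene's annotated transcripts in kilobases (kb). In the Eed iKO table the highest level per kb was that of Foxp1, with 16740 ± 1043 (SD, n = 3) in control, against 12682 ± 896.2 (SD, n = 3) in Eed iKO. Foxn3, a repressor linked to cell cycle checkpoints, followed with 11929 ± 1043 (SD, n = 3) in control, against 11881 ± 363.1 (SD, n = 3) in Eed iKO, and in the latter group it did not differ from Foxp1 beyond the spread. Next came Foxo3, with 3657 ± 493.8 (SD, n = 3) normalized counts per kb in control, then Foxj3 and Foxk1 with 2851 ± 168.5 (SD, n = 3) and 2924 ± 325.5 (SD, n = 3), which did not differ from each other beyond their spread. These 5 genes made up 82.6% of the summed level per kb of the 30 forkhead genes.

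The order was similar in the hair cycle table, in which Foxn3, Foxp1, Foxj3, Foxk1 and Foxo3 were the highest and made up 84.1% of the summed level per kb. Foxn3 was at 2503 ± 162.5 (SD, n = 3) normalized counts per kb in anagen and 2534 ± 445.1 (SD, n = 3) in telogen. Foxp1 was at 1878 ± 386.7 (SD, n = 3) in anagen and 2728 ± 366.6 (SD, n = 3) in telogen. By this measure it stood level with Foxn3 within the spread in telogen, and below it in anagen. That order rests on the mean transcript length. With the longest transcript instead, the means over all 6 libraries were 563.6 normalized counts per kb for Foxp1 and 476.9 for Foxn3. Grouped by subfamily, FOXP and FOXN genes held 36.6% and 30.1% of the summed level per kb of the Eed iKO table, and 28.2% and 34.4% of that of the hair cycle table. FOXJ, FOXK and FOXO genes each held 9.12% to 13.4% in either table. The other subfamilies together came to less than 1%, with FOXI at 0.199% and 0.0844%. All these shares use the mean transcript length and would differ with the longest. In the Eed iKO table the level of Foxn3 per kb was 11905 by the mean length and 2255 by the longest. For Foxo1 it was 749.2 by either length.

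**Figure D1:**
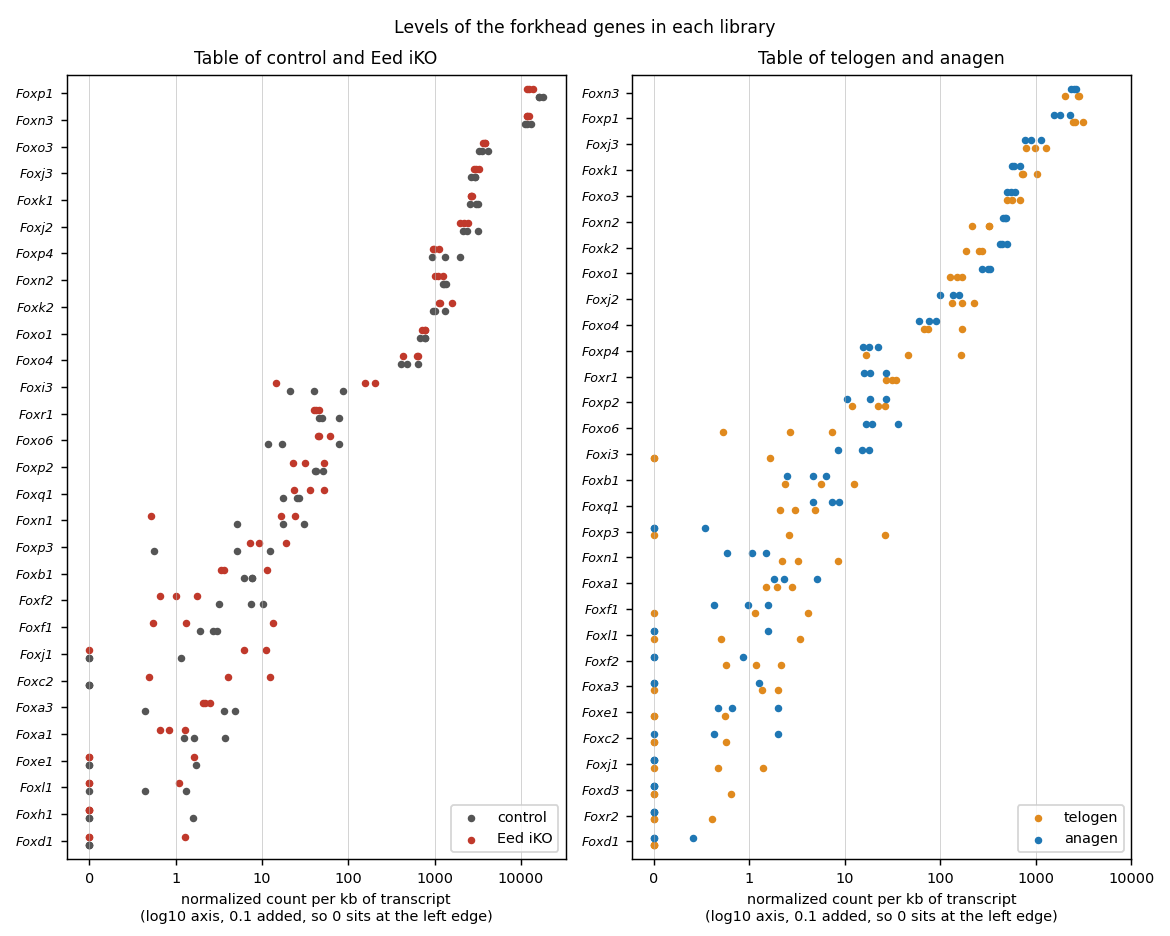
Normalized count per kb of mean transcript length (log10 axis, 0.1 added) of forkhead genes above 0 in at least 1 library. Each point is 1 of the 3 libraries of a group, with 29 of the 30 genes of the Eed iKO table on the left and 30 of the 42 genes of the hair cycle table on the right (11 others were at 0). In the left panel the 11 highest genes, from Foxp1 down to Foxo4, stand apart from the rest.

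Many forkhead genes were barely detected. The mean normalized count was under 10 for 10 of 30 genes of the Eed iKO table and for 25 of 42 of the hair cycle table, and 11 of the 42 were listed at 0 in all 6 hair cycle libraries. Among these 11 were Foxa2 and Foxi1, factors of endoderm and of ionocytes, and Foxs1, a factor of pericytes and neural crest derivatives. Foxd3, which marks neural crest and early melanoblasts, had a value above 0 in 1 hair cycle library only (1.27 normalized counts in telogen replicate 3). Foxd1 of dermal and stromal cells was above 0 in 1 library of each table, at 5.93 normalized counts in Eed iKO replicate 3 and 0.79 in anagen replicate 1. Foxa1 reached 6.50 and 8.94 in the Eed iKO and hair cycle tables, and Foxe1, a hair follicle and thyroid factor, at most 4.53 and 5.35.

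Between the phases of the hair cycle, 4 forkhead genes rose in anagen and none fell by adjusted p. The anagen and telogen libraries were fitted by limma after adding 1 to each normalized count and taking log2, which understates changes of low genes, and p-values were adjusted by the Benjamini-Hochberg method over all genes tested. Of the 42 genes, 17 passed the filter on low values and were tested. The 4 that rose were Foxo1, Foxo6, Foxk2 and Foxi3, and they are 23.5% of the 17, where 7.22% of all 13457 genes tested were called higher in anagen, 4.35% lower and 11.6% in either direction. By the thresholds stated in the methods, a log2 fold change over 2 with an unadjusted p under 0.05, 2 members were called, Foxi3 and Foxo6, both higher, beside 3.33% of all genes that were called higher and 5.1% called in either direction. Foxi3 and Foxo6 met the filter in every anagen library but not in every telogen library, so they entered through the group where they were high. The counts that hold them are therefore no test of the family. Over the 17 genes the median log2 fold change was -0.12, against 0.01 over all genes tested, and 6 of the 17 were positive.

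Foxo1, the FOXO factor best known for its control by insulin signalling, lies on the plus strand at chr3:52268336-52353221. Its normalized counts were 2368, 2904 and 2758 in anagen replicates 1, 2 and 3 and 1293, 1087 and 1474 in telogen replicates 1, 2 and 3. All anagen libraries were above all telogen libraries, and the mean was 2677 ± 276.9 (SD, n = 3) against 1285 ± 193.7 (SD, n = 3). On the log2 scale the change was 1.06 (standard error, SE, 0.20, adjusted p = 0.00623 by limma). With any 1 library left out the adjusted p stayed between 0.0067 and 0.0444, and without the intensity trend in the variance it was 0.0508.

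Foxo6, a FOXO factor that is described mainly in brain and liver, lies on the minus strand at chr4:120267079-120287349. Its normalized counts were 93.1, 43.8 and 50.0 in anagen and 6.78, 1.11 and 19.0 in telogen. The groups did not overlap, although the level was low, at 23.8 ± 10.3 (SD, n = 3) per kb in anagen. The log2 fold change was 3.12 (SE 0.83, adjusted p = 0.0340 by limma), and it ranged from 2.26 without telogen replicate 2 to 3.89 without telogen replicate 3. The adjusted p was 0.158, 0.0839 and 0.0871 without anagen replicate 1, 2 or 3, 0.0548 without telogen replicate 2, and 0.0750 without the intensity trend.

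The other FOXO genes gave no such difference. Foxo3, the most abundant of them per kb, had 1542, 1405 and 1716 normalized counts in anagen and 1395, 1935 and 1574 in telogen, so that the groups overlapped. The log2 fold change was -0.06 (SE 0.20, adjusted p = 0.864 by limma). Foxo4 was at 141.0, 166.9 and 110.5 in anagen and 138.4, 310.8 and 125.1 in telogen, with a log2 fold change of -0.35 (SE 0.41, adjusted p = 0.624 by limma).

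Foxk2, a forkhead factor of the FOXK pair that acts in metabolism and autophagy, lies on the plus strand at chr11:121259990-121309896. Its normalized counts were 1004, 904.9 and 850.3 in anagen and 512.7, 559.2 and 377.2 in telogen. Every anagen library was above every telogen library, with a log2 fold change of 0.94 (SE 0.23, adjusted p = 0.0259 by limma). The adjusted p was 0.128, 0.0979 and 0.0706 without anagen replicate 1, 2 or 3, 0.0628 without telogen replicate 3, and 0.0800 without the intensity trend. Its paralog Foxk1 had 2290, 2415 and 2778 normalized counts in anagen and 4187, 2931 and 2996 in telogen. The groups did not overlap there either, yet the log2 fold change of -0.42 (SE 0.20, adjusted p = 0.201 by limma) did not pass.

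Foxi3, the target of ectodysplasin signalling in hair and tooth placodes, lies on the plus strand at chr6:70956531-70961066. Its normalized counts were 10.3, 18.7 and 22.05 in anagen, whereas in telogen replicate 1 it was at 1.92 and in telogen replicates 2 and 3 it was listed at 0. The groups were apart, at a low level in both. The log2 fold change was 3.59 (SE 0.90, adjusted p = 0.0269 by limma), and it was 5.90 with a pseudocount of 0.1 (adjusted p = 0.0562) and 1.94 with a pseudocount of 5 (adjusted p = 0.0281). The adjusted p was 0.0841, 0.105 and 0.0973 without anagen replicate 1, 2 or 3, 0.0582 without telogen replicate 3, and 0.0570 in a fit blocked on replicate number.

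These 4 genes kept an adjusted p under 0.05 when telogen replicate 1, the library with the low bulge marker sum, was left out, at 0.0067 for Foxo1, 0.0480 for Foxo6, 0.0241 for Foxk2 and 0.0195 for Foxi3. All 8 proliferation genes listed beside them rose in anagen as well. Their summed normalized counts were 17986 to 30220 in anagen and 712.7 to 851.1 in telogen, and Mki67 was 5.10 higher on the log2 scale (adjusted p = 1.95e-06 by limma). Sums of hair cortex keratins were also higher in anagen (32.3 to 186.8 against 1.01 to 9.57), with 8 to 10 of the 11 keratins at 0 in telogen. Sums of the 8 hair matrix and transit amplifying genes were lower in anagen without overlap (605.5 to 779.9 against 905.4 to 1006). Only Msx2 had an adjusted p under 0.05, with means of 132.98 in anagen and 406.25 in telogen (log2 fold change -1.60, adjusted p = 0.00806 by limma). Myb and Msx1 were higher in anagen (log2 fold changes 2.86 and 2.004, unadjusted p = 0.0475 and 0.0181 by limma). The lower sum therefore does not hold for every gene of this list. Of the 10 fibroblast and dermal papilla markers, 5 were tested. Col1a1 and Dcn were higher in anagen (log2 fold changes 2.06 and 4.05, adjusted p = 0.00928 and 0.0106 by limma). Vim had a log2 fold change of 1.23 (adjusted p = 0.274 by limma). Col1a2 and Pdgfra went the other way (log2 fold changes -0.997 and -1.02, adjusted p = 0.108 and 0.586 by limma). The sums of the fibroblast and dermal papilla markers overlapped (612.0 to 704.7 against 367.7 to 799.6). The part of these cells in the rise of the 4 genes was not tested. In bulk RNA, fewer cells of a type and less RNA per cell cannot be told apart.

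At an unadjusted p under 0.05 there were 6 of the 17 beside 27.3% of all genes, the 4 above with Foxn2 and Foxp1. Foxn2, a little studied relative of Foxn3, had 1237, 1164 and 1258 normalized counts in anagen and 554.6, 841.7 and 828.3 in telogen (log2 fold change 0.74, SE 0.23, adjusted p = 0.0566 by limma). Foxp1 had 2728, 4049 and 3115 in anagen and 4505, 5529 and 4341 in telogen (log2 fold change -0.55, SE 0.20, adjusted p = 0.104 by limma). Both had groups without overlap. In all, 7 of the 17 genes had such groups, 5 higher and 2 lower in anagen, which is 41.2% where 33.3% of all genes tested had them (18.1% higher and 15.2% lower). Fgf18, the growth factor through which FOXP1 acts in the bulge, was lower in anagen in every library (237.2, 425.8 and 401.5 against 493.3, 1133 and 620.2), with a log2 fold change of -1.03 that did not pass after adjustment (adjusted p = 0.0810 by limma).

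**Figure D2:**
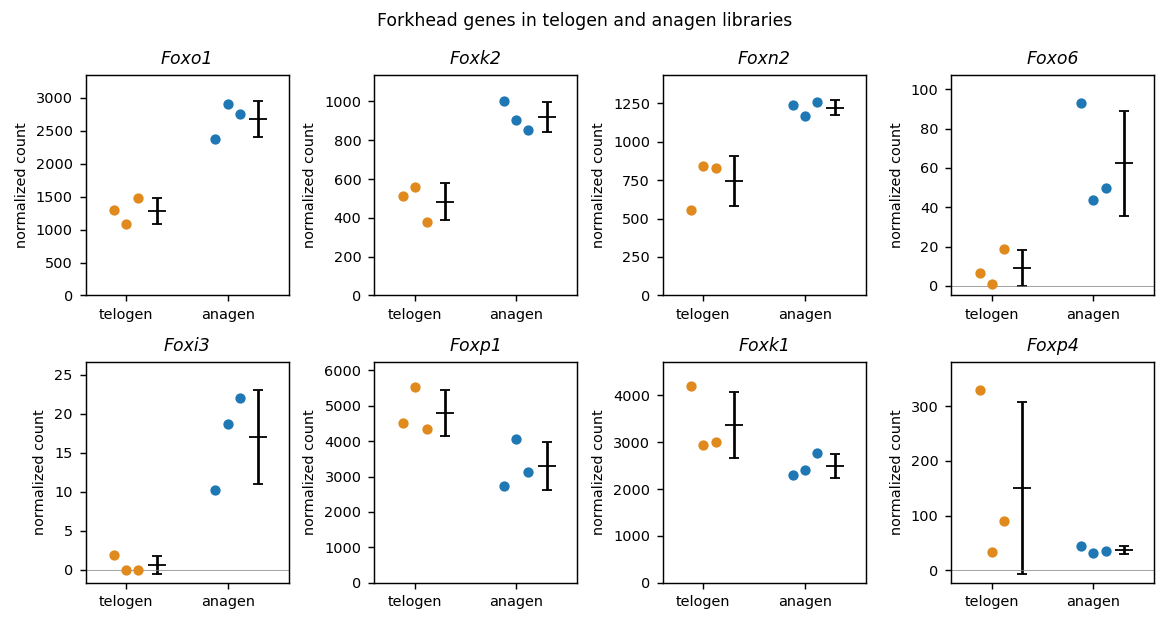
Normalized counts of 8 forkhead genes in the 3 telogen and 3 anagen libraries (points, replicates 1 to 3 from left to right), with the mean and SD of each group in black. Foxo1, Foxk2, Foxn2, Foxo6 and Foxi3 are higher in every anagen library, Foxp1 and Foxk1 are lower in every anagen library, and the spread of Foxp4 comes from telogen replicate 1 at 329.7.

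Foxp4, a FOXP1 paralog of epithelia, showed how much 1 library can decide. It was at 44.2, 30.95 and 35.8 normalized counts in anagen and at 329.7, 33.0 and 90.8 in telogen. The log2 fold change was -1.43 (SE 0.71, adjusted p = 0.220 by limma). It came to -0.57 without telogen replicate 1 and to -2.21 without telogen replicate 2 (adjusted p = 0.588 and 0.0416 by limma). Foxq1 was at 35.4, 42.0 and 21.8 in anagen and 9.71, 23.3 and 13.9 in telogen (log2 fold change 1.07, adjusted p = 0.287 by limma), with overlapping groups. The remaining tested members, Foxj2, Foxj3, Foxn3, Foxb1, Foxp2 and Foxr1, had negative log2 fold changes, -0.61 at the lowest, none past a threshold.

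Among the 25 genes that did not pass the filter were the hair differentiation factor Foxn1 and the regulatory T cell factor Foxp3. Foxn1 was at 1.58, 4.47 and 3.12 normalized counts in anagen and at 27.1, 6.67 and 10.1 in telogen, so every telogen library was above every anagen library. Without the filter its log2 fold change was -1.79 (adjusted p = 0.195 by limma). Foxp3 was at 0.58 in anagen replicate 1 and listed at 0 in anagen replicates 2 and 3. In telogen it was at 5.96, 0 and 62.1, so telogen replicate 3 alone held nearly all of it. The 10 listed T cell markers gave sums of 1003 to 1129 in anagen and 925.5 to 983.0 in telogen, most of it from Tnfrsf18 and Ikzf2. Tnfrsf18 was higher in anagen (log2 fold change 0.95, adjusted p = 0.0450 by limma) and Ikzf2 lower (-0.87, adjusted p = 0.0538 by limma). The defining marker Cd3e was at 3.38, 14.5 and 50.8 in anagen replicates 1, 2 and 3. In telogen replicates 1, 2 and 3 it was at 0, 25.3 and 4.84. The part of T cells in the Foxp3 values was not tested. The mesenchymal and vascular factors Foxc2, Foxf1 and Foxf2 reached at most 5.20, 9.68 and 4.85 normalized counts in this table, and Foxj1, the master factor of motile cilia, at most 3.34. Of the 10 endothelial and mural markers, 3 were tested and 1 was called, Tek, a receptor of endothelial cells, which was higher in anagen (74.7, 62.0 and 72.4 against 5.12, 17.6 and 5.34, adjusted p = 0.0120 by limma). Pecam1 was between 54.9 and 121.9 in all 6 libraries, and Cdh5 and Cldn5 were at 0 in all 6.

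For FOXO factors, the genes that control them and genes they are known to induce or repress were listed as well. Of 18 upstream kinases and regulators, 1 was higher and 3 were lower in anagen by limma adjusted p, with a median log2 fold change of -0.03. These 4 are set beside the 7.22% of all genes tested that were higher, 4.35% lower and 11.6% in either direction. The higher one was Sirt1, a deacetylase of FOXO proteins (log2 fold change 1.21, adjusted p = 0.00782 by limma). Among the lower ones were Pik3r1, the regulatory subunit of PI3K (-1.04), and Irs1, the adaptor of the insulin receptor (-1.01). Akt1 and Insr, with log2 fold changes of 0.80 and -0.64, did not pass after adjustment.

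Of 18 FOXO target genes, 5 were higher and 1 was lower in anagen by limma adjusted p, where 7.22% of all genes tested were higher and 4.35% lower. Their median log2 fold change was 0.08. Ccnd1 and Ccnd2, which drive the cell cycle and are repressed by FOXO in other cells, were 1.58 and 1.503 higher on the log2 scale. Ccng2, Sesn3 and Bcl2l11, which FOXO induces in arrest, stress defence and cell death, were 1.95, 1.34 and 1.21 higher. Txnip, induced in quiescence and by glucose, had 1506, 1735 and 1883 normalized counts in anagen and 4276, 4335 and 5913 in telogen, a log2 fold change of -1.49 (SE 0.20, adjusted p = 0.000929 by limma). Genes repressed by FOXO and genes induced by FOXO were both among those that rose.

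**Figure D3:**
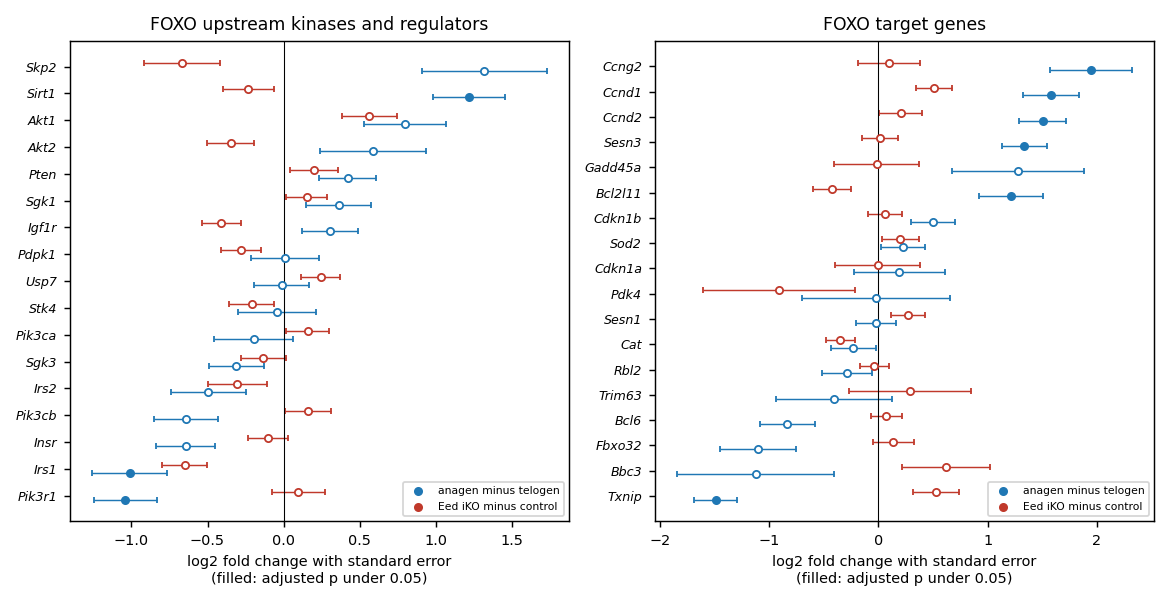
Log2 fold changes with standard errors of 17 of the 18 upstream regulators (left) and 18 target genes (right) of FOXO factors, for anagen minus telogen in blue and Eed iKO minus control in red. Filled points have an adjusted p under 0.05; 3 regulators and 6 targets are filled for the hair cycle and none for Eed iKO.

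Of the 4 genes of the ectodysplasin pathway listed with Foxi3, Edaradd, the adaptor of the receptor, was higher in anagen at 1355, 1317 and 1157 against 465.7, 674.5 and 479.9 normalized counts (log2 fold change 1.26, SE 0.23, adjusted p = 0.00533 by limma). The ligand gene Eda had a log2 fold change of -0.23 (adjusted p = 0.649 by limma). The receptor gene Edar was at 18.9, 1.79 and 16.6 in anagen and at 3.88, 0 and 0 in telogen, and it was not tested. Within 100000 bp of the 4 forkhead genes that rose, 10 other protein-coding genes were annotated. Of these, 8 were tested and 1 was called by adjusted p, where 11.6% of all genes tested were called in either direction. This was Edn2, a vasoactive peptide gene 99719 bp from Foxo6, at 11.0, 30.2 and 34.4 normalized counts in anagen and listed at 0 in telogen (adjusted p = 0.00761 by limma). It passed the filter on low values only through anagen, the group where it was high.

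Between the libraries labelled Eed iKO and control, no tested forkhead gene passed either call rule. Of the 30 genes, 20 passed the filter and were tested. Among those not tested, Foxc2 and Foxf2 passed the rule of fold change and unadjusted p when limma was run without the filter, as given below. By limma, 0 of the 20 had an adjusted p under 0.05, where 0.0267% of all 15008 genes tested did, and 0 passed a log2 fold change over 1.5 with an unadjusted p under 0.05, where 1.75% of all genes did. On the recovered reads, DESeq2 and edgeR also gave 0 calls among the 20 by either rule. At an unadjusted p under 0.05 there was 1, Foxp1, which was lower; it is 5.0% of the 20, beside 14.7% of all genes and 6.33% that were lower. The median log2 fold change was -0.07, 9 of 20 were positive, and 14 were under 0.5 in size.

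Foxp1 lies on the minus strand at chr6:98925338-99522721. It had 28295, 31515 and 28394 normalized counts in the control libraries and 22006, 20850 and 23964 in the libraries labelled Eed iKO, in which Eed itself was not lower. All 3 were below all control libraries. The log2 fold change was -0.40 (standard error 0.13), with an unadjusted p of 0.0109 and an adjusted p of 0.191 by limma. With each library left out in turn the log2 fold change stayed between -0.46 and -0.35. Fgf18 was likewise lower in each, at 3553, 3077 and 4442 against 5020, 5091 and 8941, with a log2 fold change of -0.74 (SE 0.23, adjusted p = 0.175 by limma).

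**Figure D4:**
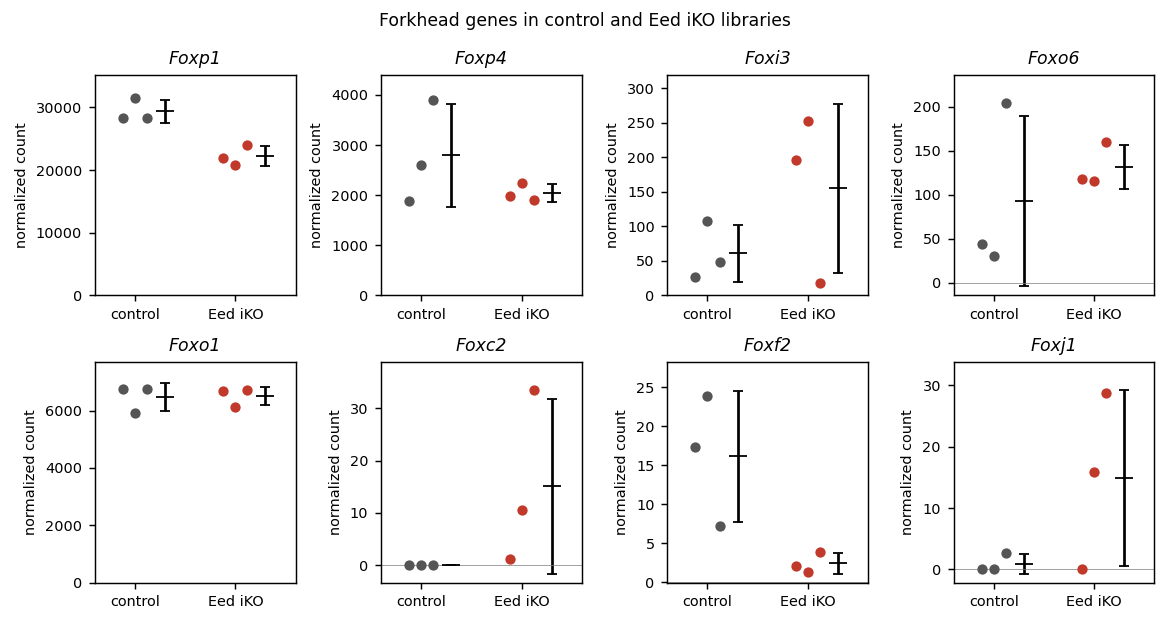
Normalized counts of 8 forkhead genes in the 3 control libraries and the 3 libraries labelled Eed iKO (points, replicates 1 to 3 from left to right), with the mean and SD of each group in black. Foxp1 and Foxf2 are lower in each Eed iKO library, Foxc2 is at 0 in all controls, and Foxi3 is high in Eed iKO replicates 1 and 2 only.

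Of the 4 genes that rose in anagen, none passed a call rule here. Foxo1 was at 6751, 5928 and 6746 normalized counts in control and 6674, 6133 and 6720 in Eed iKO, with a log2 fold change of 0.01 (SE 0.13, adjusted p = 0.984 by limma). Foxk2 was at 1927, 2673 and 2056 in control and 2347, 3256 and 2255 in Eed iKO, with overlapping groups (log2 fold change 0.23, SE 0.20, adjusted p = 0.617 by limma). Foxo6 was at 44.4, 30.3 and 204.9 in control and 118.3, 115.5 and 160.2 in Eed iKO. Its log2 fold change was 0.98 (SE 0.68, adjusted p = 0.531 by limma), and it was 1.79 without control replicate 3, the library in which it was highest (unadjusted p = 0.00933, adjusted p = 0.194 by limma). Without control replicate 2 it was 0.44, and on recovered reads DESeq2 gave 0.49.

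Foxi3 followed single libraries. It was at 26.4, 107.2 and 49.0 normalized counts in control and at 195.7, 252.3 and 17.8 in Eed iKO replicates 1, 2 and 3, so replicate 3 was the lowest of all 6 libraries. The log2 fold change was 0.89 (SE 0.95, adjusted p = 0.714 by limma), and without Eed iKO replicate 3 it was 2.08 (unadjusted p = 0.00996, adjusted p = 0.149 by limma). Without Eed iKO replicate 1 or 2 it was 0.38 or 0.20. The summed proliferation genes had the same outline, with 11351 and 11154 normalized counts in Eed iKO replicates 1 and 2 and 1191 in replicate 3, against 1614, 4490 and 1585 in control. Their part in the Foxi3 values was not tested.

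The other members with a role in skin or in cells that a sort could carry along gave values without a call. Foxn1 was at 15.96, 55.2 and 97.9 in control and 76.3, 1.33 and 53.4 in Eed iKO (log2 fold change -1.09, adjusted p = 0.736 by limma), and it was 0.51 without Eed iKO replicate 2. Foxp4 was at 1881, 2608 and 3900 in control and 1983, 2244 and 1905 in Eed iKO. Its log2 fold change of -0.39 (adjusted p = 0.471 by limma) came to -0.12 without control replicate 3 and -0.65 without control replicate 1. Foxp3 was at 11.8, 1.08 and 29.0 in control and 21.5, 43.8 and 16.8 in Eed iKO (log2 fold change 1.496, adjusted p = 0.538 by limma), and the change was 0.42 without control replicate 2 and 2.34 without control replicate 3. The 8 T cell markers in this table gave sums of 1672 to 2340 in control and 2773 to 3077 in Eed iKO, most of it from Tnfrsf18, while Cd3e was between 3.98 and 18.8 in all libraries. Whether such cells take part in the Foxp3 values was not tested. Foxq1 was at 122.8, 84.5 and 130.6 in control and 174.2, 114.2 and 255.1 in Eed iKO (log2 fold change 0.63, adjusted p = 0.545 by limma). Groups without overlap were found for 3 of the 20 tested members, Foxp1 and Foxr1 among them, all lower in Eed iKO; of all genes tested, 20.2% had such groups, and 10.0% had them with Eed iKO lower.

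Of the 10 genes that did not pass the filter, Foxc2 and Foxd1 were at 0 in all control libraries. Foxc2, a factor of lymphatic and mesenchymal development, had 0 reads in each control library and 1, 8 and 34 reads in Eed iKO replicates 1, 2 and 3, or 1.08, 10.6 and 33.6 normalized counts. Its mean in Eed iKO was at least 5.63-fold higher than the floor of 3 reads per control library, while replicate 1 lay under that floor. Without Eed iKO replicate 3 the bound was 2.18-fold. Fitted without the filter, Foxc2 had a log2 fold change of 3.24 (SE 1.08), an unadjusted p of 0.0128 and an adjusted p of 0.232 by limma. This is past the rule of fold change and unadjusted p, but not past that of adjusted p. Its neighbours on chromosome 8, Foxf1 at a distance of 28027 bp and Foxl1 at 9045 bp, gave other values. Foxf1 was at 6.94, 4.33 and 6.35 in control and 1.08, 31.9 and 2.97 in Eed iKO, and Foxl1 was at 3.25 at most.

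Foxf2, a factor of mesenchyme and pericytes, was lower in each Eed iKO library, at 17.3, 23.8 and 7.25 in control and 2.15, 1.33 and 3.95 in Eed iKO. Without the filter its log2 fold change was -2.23 (SE 0.85, unadjusted p = 0.0242, adjusted p = 0.292 by limma), past the rule of fold change and unadjusted p only. Summed fibroblast and dermal papilla markers were 1836 to 3412 in control and 1349 to 2042 in Eed iKO, and their part in the Foxf2 values was not tested. Foxj1 was at 0, 0 and 2.72 in control and 0, 15.9 and 28.7 in Eed iKO (log2 fold change 2.36 without the filter, adjusted p = 0.462 by limma). Of 13 motile cilium genes controlled by FOXJ1 in other tissues, 5 were tested in this comparison, 0 were called by either rule, and the median log2 fold change was 0.51, against -0.0011 over all genes tested. At an unadjusted p under 0.05 there was 1, beside 14.7% of all genes, namely Ccdc39 (log2 fold change -1.25, adjusted p = 0.337 by limma). Ccdc40, Tekt2 and Rsph4a had log2 fold changes of 2.23, 0.56 and 0.51, and Hydin had -0.76. Rsph1, which was not tested, was at 0 in all controls and at 72.0, 33.2 and 0 in Eed iKO. Dnah5, also not tested, was at 19.4 in control replicate 1 and at 0 in every other library.

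The FOXO lists held no call between the libraries labelled Eed iKO and control. Of the 18 upstream regulators, 1 was higher and 4 were lower at an unadjusted p under 0.05, where 14.7% of all genes were past it and 6.33% were lower, and limma gave 0 at an adjusted p under 0.05. Irs1 had the smallest p, with 4061, 3539 and 4246 normalized counts in Eed iKO and 6513, 5364 and 6738 in control (log2 fold change -0.65, SE 0.15, adjusted p = 0.107 by limma). Akt1 was at 3303, 3914 and 2691 in Eed iKO and 2256, 2514 and 1905 in control (log2 fold change 0.56, SE 0.18, adjusted p = 0.191 by limma). Of the 18 FOXO targets, 2 were higher and 2 were lower at an unadjusted p under 0.05 and 0 at an adjusted p under 0.05 by limma, beside the same 14.7% of all genes. The 4 were Ccnd1 (log2 fold change 0.51, adjusted p = 0.196 by limma), Txnip (0.53, adjusted p = 0.277), Bcl2l11 (-0.42, adjusted p = 0.291) and Cat, the catalase gene (-0.35, adjusted p = 0.261).

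**Figure D5:**
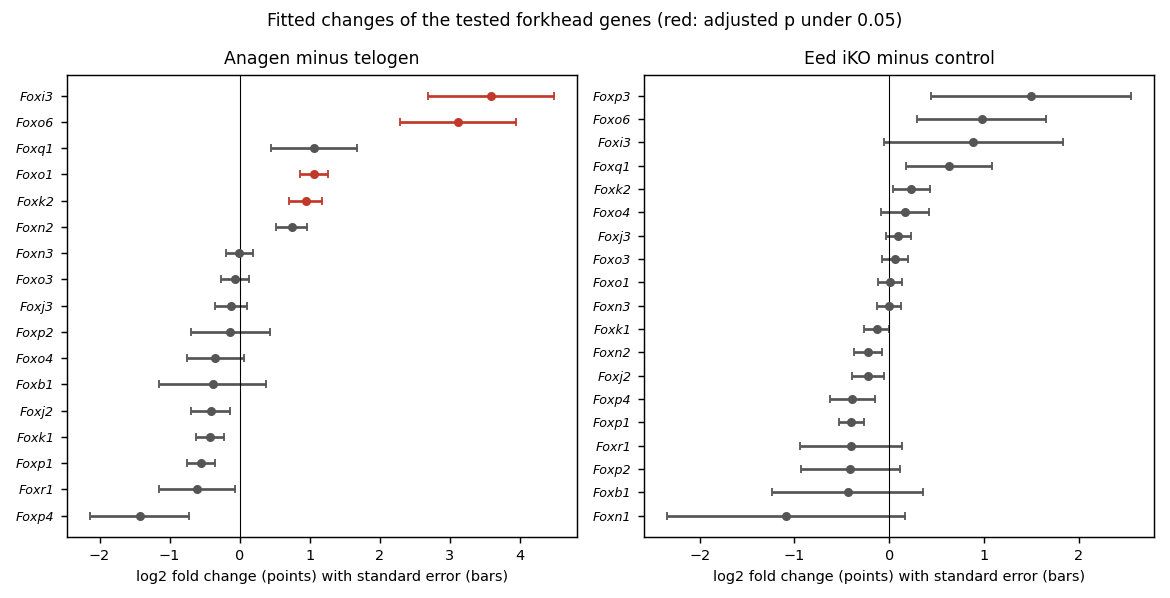
Log2 fold changes with standard errors of the 17 forkhead genes tested in the hair cycle comparison (left, anagen minus telogen) and 19 of the 20 tested in the Eed iKO comparison (right, Eed iKO minus control). The 4 red points, Foxi3, Foxo6, Foxo1 and Foxk2, have an adjusted p under 0.05, and no point is red on the right.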

How the data were processed

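RNA-seq of 12 libraries was used. Per the methods and the submitters' processing notes, the authors aligned reads with kallisto 0.42.5 to the GENCODE vM20 transcriptome (mm10) and scaled counts with DESeq2 (given as version 3.11). The deposited signal values are these normalized counts per gene and library. In the Eed iKO table all values were whole multiples of 1 step per library, from which reads were recovered; the hair cycle table holds fractional estimates. The authors also deposited log2 fold changes and their standard errors, test statistics (a score) and p-values, which were not used. Columns without a sample numbered 0. Some genes and sequences that enter the counts are not reported here one by one.

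Genes passing filterByExpr (count minimum 10) were fitted with limma 3.58.1 (intensity trend, no block) in R 4.3.3 on log2(normalized count + 1), each table on its own, with Benjamini-Hochberg adjustment over all genes tested. The fit was tested on simulated data. Alternatives were pseudocounts of 0.1 and 5, no filter, TMM scaling, no trend, a replicate block, leaving out each library, edgeR 4.0.16 and DESeq2 1.42.0 on recovered reads, the longest transcript length, and a linear fold rule of 1.5. Levels per kb used mean transcript lengths of GENCODE vM21. Forkhead genes were named if called, among the 5 highest per kb, or with a known role in skin or in cells a sort could hold; genes of other lists were named if called, for the smallest p, or as defining markers. Members and lists were chosen with earlier results of these data known. The paper describes the libraries of the Eed iKO comparison as biological replicates from separate litters. The labels do not tie single libraries to animals or litters, so p-values measure the spread between these libraries, which may be technical in part.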

Additional observations from a re-analysis of the deposited data

How the results depend on the processing

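Between the libraries labelled Eed iKO and control, the number of forkhead genes past a log2 fold change of 1.5 with an unadjusted p under 0.05 was 0, and it became 2 with no filter on low values, 3 with no filter and the replicate block together, and 1 with DESeq2 or with edgeR on recovered reads without the filter; it was 0 to 1 when each library was left out, with 1 without control replicate 3 and 1 without Eed iKO replicate 3. Fits without the filter add the 10 low genes. The 2 called by limma were Foxc2 and Foxf2, Foxj1 joined them with the block, and DESeq2 and edgeR called Foxc2. By adjusted p it was 0 in all 18 settings tried. In the hair cycle, the 2 genes past a log2 fold change of 2 became 1 with a pseudocount of 5 and 4 under a linear fold of at least 1.5 with adjusted p, and the count was 2 to 3 with each library left out. The 4 genes by adjusted p became 1 without the intensity trend and 1 to 4 with each library left out (1 without anagen replicate 1, 2 or 3, and 2 without telogen replicate 3); the cause was not tested.

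Directions turned for some genes without a call. Foxn3 came to 0.00 with TMM scaling. Leaving out each library gave log2 fold changes for Eed iKO against control of -2.02 to 0.51 for Foxn1, -0.06 to 0.06 for Foxn3, -0.05 to 0.05 for Foxo1 and -0.02 to 0.17 for Foxo3, and in the hair cycle -0.96 to 0.18 for Foxb1, -0.29 to 0.06 for Foxj3, -0.16 to 0.09 for Foxn3, -0.17 to 0.06 for Foxo3, -0.59 to 0.06 for Foxo4 and -0.46 to 0.22 for Foxp2.

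Replicate numbers are shared between groups, but same-numbered libraries did not deviate together, with correlations of 0.039, 0.068 and 0.193 in the Eed iKO table and -0.035, -0.071 and -0.029 in the hair cycle table, and not every library correlated best with its own number. With the replicate block the count by adjusted p was 3 in the hair cycle, where Foxi3 came to 0.0570 by limma, and 0 for Eed iKO against control. With the longest transcript in place of the mean length, 4 of the 5 highest genes in the Eed iKO table and 5 of 5 in the hair cycle table stayed the highest. Within the hair cycle table Foxp1 then ranked above Foxn3. The unknown depth of the hair cycle libraries and the low counts of 25 genes there limit what could be detected.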
